A study of Homo sapiens with 16 samples.

Results

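The replication-dependent histone genes encode the H1 linker histones and the core histones H2A, H2B, H3 and H4 that package newly made DNA. The members were the protein-coding rows of the count table whose symbols are H1-1 to H1-6, or begin with H2AC, H2BC, H3C or H4C followed by a number, with older HIST names counted as the same genes. This gave 45 genes of 33937 in the table, of 65 such genes in GENCODE 29. Of the 45, 11 had more than 1 CPM (counts scaled to a common library size) in at least 4 of the 16 libraries, the level filter used below. That is 24.4% of the members, beside 42.4% of all rows.

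RNA-seq was performed on HCT116 cells, an established human colorectal carcinoma cell line, carrying a doxycycline-inducible scramble (SCR) or NAA40-directed (NAA40-KD) shRNA. NAA40 is the enzyme that acetylates the N-terminal serine of histones H4 and H2A. Cells of each line were kept for 96 h with 1 μg/ml doxycycline (+dox) or without it (-dox), and each condition is represented by 4 libraries from separate RNA preparations. The 4 groups are therefore SCR (-dox), NAA40-KD (-dox), SCR (+dox) and NAA40-KD (+dox), all of which carry an shRNA construct, and the knockdown is represented by 1 shRNA line. NAA40 itself went against these labels. Its level was 34.4, 25.9, 29.01 and 28.2 CPM in the SCR (-dox) libraries and 12.6, 11.5, 9.25 and 13.8 CPM in the NAA40-KD (-dox) libraries, whereas the NAA40-KD (+dox) libraries lay between 28.6 and 31.8 CPM and the SCR (+dox) libraries between 26.0 and 28.8 CPM. The column names of the (-dox) libraries read wDox and those of the (+dox) libraries read Dox. The meaning of the w was not given in the sources used here. Group names below are therefore those of the labels, and every direction given is between libraries labelled in that way. With, under or without doxycycline likewise means so labelled.

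Most replication-dependent histone mRNAs are made during S phase, lack introns and end in a conserved stem-loop instead of a poly(A) tail. The stem-loop is bound by SLBP, which accompanies the mRNA from 3' end cleavage to translation and decay, while NPAT is the coactivator that switches the clusters on at S phase entry. A small number of these genes, among them H2AC6, H2BC5, H2BC12 and H2BC21, are also known to give polyadenylated transcripts that read past the stem-loop and that persist in cells leaving the cycle. Whether the libraries were made by poly(A) selection or by removal of ribosomal RNA was not given in the sources used here.

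The stem-loop sequences of 6 of the members past the filter are shown because they mark the point where the replication-dependent transcript normally ends. They come from GENCODE 29 transcripts (GRCh38), 5' to 3', with the 16-base stem-loop in capitals (searched as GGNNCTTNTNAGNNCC on the sense strand after the stop codon).
H2AC6: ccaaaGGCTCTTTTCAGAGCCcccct
H2AC25: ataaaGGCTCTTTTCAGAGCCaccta
H2BC5: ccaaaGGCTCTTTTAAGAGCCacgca
H2BC21: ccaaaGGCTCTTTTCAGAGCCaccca
H3C6: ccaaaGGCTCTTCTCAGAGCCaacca
H4C9: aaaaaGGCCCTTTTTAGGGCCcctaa
They were cut around a match of the motif, so all 6 hold it by construction. The motif was found after the stop codon in 23 of the 45 members. The 18 members annotated as coding sequence only could not hold it there. Of 19684 protein-coding genes of GENCODE 29, 110 (0.559%) held it anywhere in a transcript, which is a wider search than that of the members.

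The annotated ends of the members differed between those past the level filter and those below it. Of the 11 past the filter, 9 had an annotated transcript with the stem-loop, and all of these 9 had more than 100 annotated bases after the stop codon. Sequence annotated beyond the stem-loop reached 1114 bases in H2AC6, 390 in H2AC25, 1729 in H2BC21, 1862 in H3C6 and 212 in H4C9. In H2BC5 it was 39 bases, and a second transcript of that gene lacks the stem-loop and has 384 bases after the stop. The other 2 members past the filter, H1-2 and H2BC12, are annotated as coding sequence only. Of the 34 members below the filter, 16 were annotated as coding sequence only, 6 had 1 to 100 bases after the stop and 12 had more. The part of annotated length in these counts was not tested.

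The promoters of H2AC6, H2BC5 and H1-2 are shown because these 3 genes moved in 3 of the 4 pairwise comparisons below. They are RefSeq windows of 300 bases on GRCh38.p14, from 250 bases before the start to 50 after it, written 5' to 3' on the gene's strand with motifs in capitals. The letters searched on both strands were TATAAA for the TATA box and CCAAT for the CCAAT box. The octamer was searched as ATTTGCAT and the H1 box as AAACACA. None of these words contains another, but neighbouring matches can share bases.
H2AC6, chr6:26123922-26124221, + strand: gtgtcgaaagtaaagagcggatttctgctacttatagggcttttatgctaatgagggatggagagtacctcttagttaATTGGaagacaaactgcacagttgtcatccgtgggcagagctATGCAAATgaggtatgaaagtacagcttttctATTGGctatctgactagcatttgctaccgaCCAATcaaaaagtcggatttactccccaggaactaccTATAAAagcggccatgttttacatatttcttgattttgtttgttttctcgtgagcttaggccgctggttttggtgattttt
H2BC5, chr6:26157872-26158171, + strand: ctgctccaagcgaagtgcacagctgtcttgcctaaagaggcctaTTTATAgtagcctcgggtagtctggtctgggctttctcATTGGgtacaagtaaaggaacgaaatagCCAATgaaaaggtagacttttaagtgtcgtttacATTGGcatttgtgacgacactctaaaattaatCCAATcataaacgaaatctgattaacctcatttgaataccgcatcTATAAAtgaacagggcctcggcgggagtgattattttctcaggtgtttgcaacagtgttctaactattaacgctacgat
H1-2, chr6:26056421-26056720, - strand: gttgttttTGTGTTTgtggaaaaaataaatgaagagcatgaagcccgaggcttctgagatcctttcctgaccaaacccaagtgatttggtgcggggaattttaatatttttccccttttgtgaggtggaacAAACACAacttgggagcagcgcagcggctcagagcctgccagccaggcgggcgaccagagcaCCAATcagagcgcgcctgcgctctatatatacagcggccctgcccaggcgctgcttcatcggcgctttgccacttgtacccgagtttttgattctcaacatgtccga
H2AC6 holds the octamer, 3 CCAAT words and a TATA word. H2BC5 holds 4 CCAAT words and no octamer, and its 2 TATA words lie at positions -206 and -29 from the start. H1-2 holds 2 H1 box words and 1 CCAAT word.

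The classes of histone differed in these promoter words. Of the 44 member windows in RefSeq, 18 held the octamer (1.77% of 35116 promoter windows of that length), namely 7 of 9 for H2A and 11 of 16 for H2B and none for H1, H3 or H4. The CCAAT word was in 36 of 44 (34.6% of all), with only 2 of 10 H4 windows, and the TATA word in 30 of 44 (11.5% of all). A match on either strand at any position counted, so some TATA matches lie far from the start, such as that of H2BC4 at -220. H2BC5, H2BC12 and H3C6 each have 2 of the 44 windows. The H1 box was in all 4 H1 windows and in 5 of 44 overall (5.64% of all). Some of these windows overlap, because 8 pairs of members start on opposite strands within 1000 bases of each other, such as H2BC4 and H2AC6 with 219 bases between their starts. In 5 of the 8 pairs 1 gene passed the level filter and its partner did not, and in no pair did both pass. H2BC12 had 1746 counts over the 16 libraries and its partner H2AC12 had 13.

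The count table held between 11065606 and 13855486 counts per library. NAA40-KD (-dox) replicate 4 stood apart from its group. The chi-square per degree of freedom between it and the other 3 replicates was 128 to 140, beside 2.43 to 7.16 among those 3. In this library NPAT was at 11.01 CPM, beside 31.7 to 35.3 in the other 3, RN7SL2, an RNA made without a poly(A) tail, was at 17.5 CPM beside 1.04 to 2.58, and the epithelial keratin KRT8 was at 5140 CPM beside 2281 to 2851. Of the markers fixed to check the cell line, the epithelial EPCAM lay between 257 and 396 CPM in all libraries. The leukocyte marker PTPRC, the endothelial marker PECAM1 and the fibroblast collagen COL3A1 stayed below 1 CPM, while COL1A1 was at 56.6 to 195 CPM, with its highest value in replicate 4 of NAA40-KD (-dox). The part of these shifts in the histone values was not tested. The numbers of members called at an adjusted p below 0.05 are given with and without this library. The class sums and some other values are given with it only.

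Reads on the members were few. All 45 genes together took 13593 counts over the 16 libraries, and the 34 members below the filter took 8.37% of these, with no count above 24 in any library. By class, 1 of 4 H1 genes passed the filter (H1-2), 3 of 10 H2A genes (H2AC6, H2AC11 and H2AC25), 4 of 14 H2B genes (H2BC5, H2BC12, H2BC15 and H2BC21), 2 of 5 H3 genes (H3C6 and H3C10) and 1 of 12 H4 genes (H4C9). Levels below are CPM scaled by the trimmed mean of M values (TMM), and, since bulk RNA was measured, fewer cells making an mRNA and less of it per cell cannot be told apart. Per kilobase of exon, the mean level over the 16 libraries was highest in H2BC12 (22.3 CPM per kb), followed by H1-2 (16.5), H2AC25 (10.3), H2BC5 (7.77), H2AC6 (5.76) and H4C9 (2.75). H2BC21, H3C6 and H3C10 lay between 1.00 and 1.77 CPM per kb, and H2AC11 (0.491) and H2BC15 (0.428) were lowest. The 2 genes at the top are those annotated as coding sequence only, with 381 and 642 bases of exon. The order was not the same in every group, since H2AC25 (12.4 CPM per kb) lay above H1-2 (11.2) in NAA40-KD (+dox), and H2BC15 (0.754) above H2AC11 (0.469) in NAA40-KD (-dox). Genes within a class have similar coding sequences, and the handling of reads with several matches was not given in the sources used here. Reads may therefore be split or lost between members. H2BC15 also overlaps H2AC15 and H2BC16P on the opposite strand and H2AC16, another member, on its own strand. H2BC5 overlaps a gene on the opposite strand and LARP1P1 on its own strand. The strand setting of the counting was not given.

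**Figure D1:**
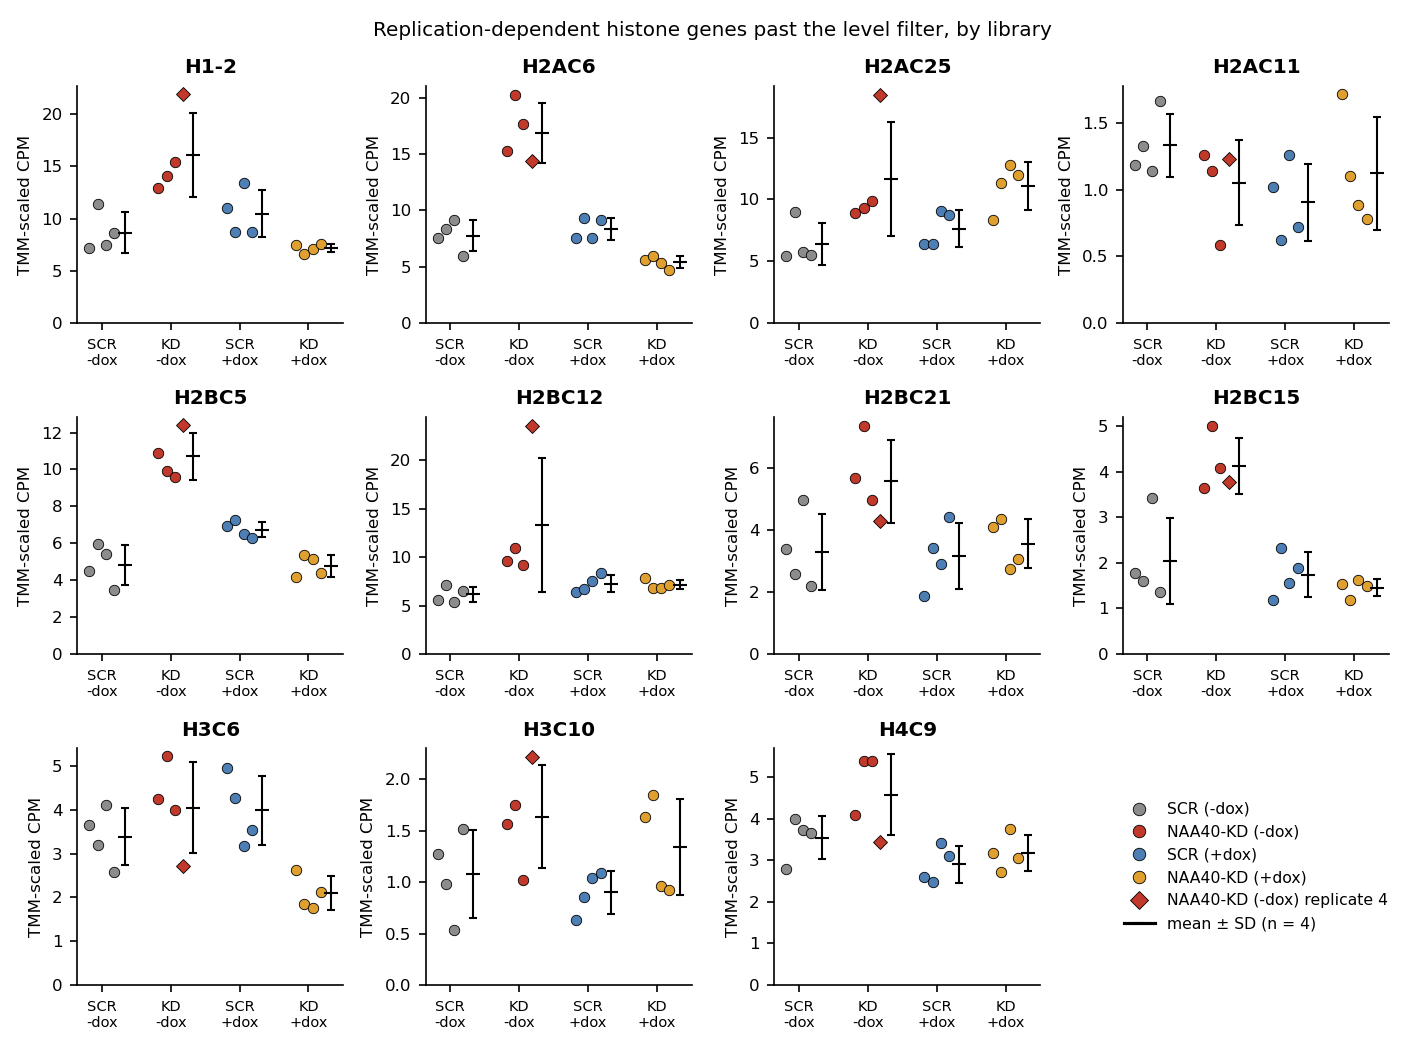
Level of each of the 11 members past the filter in every library (vertical axis, TMM-scaled CPM from 0) in the 4 groups (horizontal axis), with the mean and SD (n = 4) beside the points and NAA40-KD (-dox) replicate 4 drawn as a diamond. H2AC6 and H2BC5 lay higher in every NAA40-KD (-dox) library than in any other library. The diamond is the highest point for H2BC12 (23.6 CPM), H1-2 (21.9 CPM), H2AC25 (18.5 CPM), H2BC5 (12.4 CPM) and H3C10 (2.22 CPM).

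The first comparison asked how the line with low NAA40 differed from its scramble control without doxycycline. H2AC6 and H2BC5, which encode an H2A and an H2B, rose more than 2-fold in NAA40-KD (-dox) against SCR (-dox), and the linker histone gene H1-2 rose by a smaller factor. Of the 11 members tested, 10 had a positive log2 fold change, the exception being H2AC11 (-0.34). The median was 0.88, beside 0.04 over all 13903 genes tested. In the edgeR quasi-likelihood test with Benjamini-Hochberg adjustment, 3 of 11 members were higher at an adjusted p below 0.05, beside 2.88% of all genes (6.42% in either direction). Of these, 2 exceeded a log2 fold change of 1, beside 1.63% of all genes (3.47% in either direction).

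H2AC6 (ENSG00000180573, HIST1H2AC, chr6:26124145-26139116) was at 7.56, 8.36, 9.16 and 5.93 CPM in the SCR (-dox) libraries and at 15.3, 20.3, 17.7 and 14.4 CPM in the NAA40-KD (-dox) libraries. The groups did not overlap, and the estimate on the log2 scale was 1.13 (SE 0.188, adjusted p = 0.0103 by edgeR). H2BC5 (ENSG00000158373, HIST1H2BD, chr6:26158146-26171349) was at 4.50, 5.96, 5.42 and 3.50 CPM against 10.9, 9.94, 9.61 and 12.4 CPM. Its lowest NAA40-KD (-dox) library lay above its highest SCR (-dox) library, and the estimate was 1.15 (SE 0.203, adjusted p = 0.0127). H1-2 (ENSG00000187837, HIST1H1C, chr6:26055787-26056428) was at 7.14, 11.4, 7.48 and 8.66 CPM against 13.0, 14.04, 15.4 and 21.9 CPM. These groups did not overlap either, and the estimate on the log2 scale was 0.90 (SE 0.230, adjusted p = 0.0477).

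H2BC12 (ENSG00000197903, HIST1H2BK, chr6:27146418-27146798) was far higher in NAA40-KD (-dox) replicate 4 than in the other libraries. Its SCR (-dox) libraries were at 5.61, 7.11, 5.42 and 6.46 CPM and its NAA40-KD (-dox) libraries at 9.61, 10.9, 9.18 and 23.6 CPM, without overlap. The log2 fold change was 1.13 (SE 0.321) with an adjusted p of 0.0677, and without replicate 4 it was 0.68 (SE 0.151) with an adjusted p of 0.00241. H2AC25 (ENSG00000181218, HIST3H2A, chr1:228456979-228457873) was at 5.44, 8.98, 5.73 and 5.47 CPM against 8.86, 9.34, 9.90 and 18.5 CPM. Its groups overlapped through SCR (-dox) replicate 2, and its estimate on the log2 scale was 0.88 (SE 0.292, adjusted p = 0.106), or 0.55 (adjusted p = 0.0232) without replicate 4.

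Among the members with fewer reads, H2BC15 had a log2 fold change of 1.01 (adjusted p = 0.0753) and did not overlap between the groups. Its SCR (-dox) libraries were at 1.79, 1.6, 3.44 and 1.37 CPM and its NAA40-KD (-dox) libraries at 3.65, 5.01, 4.08 and 3.78 CPM. H2BC21, an H2B gene on chromosome 1, was at 3.40, 2.58, 4.96 and 2.20 CPM in SCR (-dox) and at 5.66, 7.36, 4.95 and 4.27 CPM in NAA40-KD (-dox). The groups overlapped through SCR (-dox) replicate 3, and the difference was 0.76 on the log2 scale (adjusted p = 0.143). The log2 fold change was 0.60 for H3C10, 0.37 for H4C9 and 0.26 for H3C6, with adjusted p-values between 0.325 and 0.550. The 7 largest values belonged to H1, H2A and H2B members, and the difference between classes was not tested. In all, 5 of the 11 members were higher in every NAA40-KD (-dox) library than in every SCR (-dox) library, beside 9.93% of all genes. Without NAA40-KD (-dox) replicate 4 this held for 6 of 11, beside 20.4% of all genes.

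Leaving out NAA40-KD (-dox) replicate 4 raised the number of members called from 3 to 7 of 11, all higher (H1-2, H2AC6, H2AC25, H2BC5, H2BC12, H2BC15 and H2BC21). The share of all genes called higher rose at the same time from 2.88% to 17.1% (36.5% in either direction, shares without this library being computed after seeing the data, as were the list counts without it below), and the median of the members went from 0.88 to 0.68. Without this library the log2 fold changes were 1.19 for H2AC6, 1.07 for H2BC5 and 0.71 for H1-2. H2AC6 stayed below an adjusted p of 0.05 when any 1 of the 8 libraries was left out. H2BC5 did so in 7 of 8 fits and missed it without SCR (-dox) replicate 1 (adjusted p = 0.0579), where 1 member remained called. H1-2 passed in 1 of 8 fits, the one without NAA40-KD (-dox) replicate 4, and in the other 7 its adjusted p was between 0.0636 and 0.151.

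**Figure D2:**
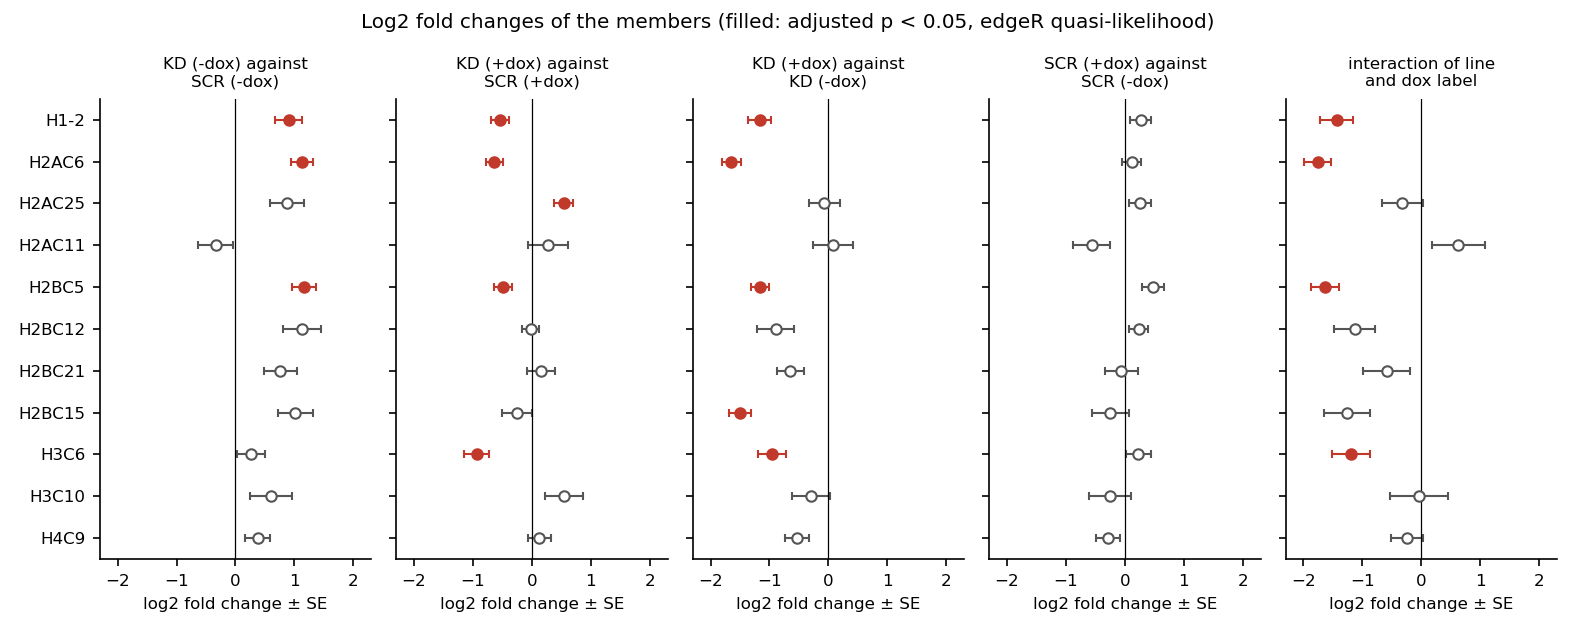
Log2 fold change with its standard error (horizontal axis) for each of the 11 members (vertical axis) in the 4 pairwise comparisons and in the interaction of line and doxycycline label, filled where the adjusted p was below 0.05. H2AC6, H2BC5 and H1-2 are filled to the right in the first panel (1.13, 1.15 and 0.90) and to the left in the others except SCR (+dox) against SCR (-dox).

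The second comparison set the doxycycline labels against each other within the NAA40-KD line. It shares the NAA40-KD (-dox) libraries with the first, so opposite signs in the pair are not independent. H2AC6, H2BC5, H1-2, H2BC15 and the H3 gene H3C6 fell in NAA40-KD (+dox) against NAA40-KD (-dox), and no member rose. In the edgeR test 5 of 11 members were lower at an adjusted p below 0.05, beside 5.5% of all genes (10.2% in either direction). Of these, 4 were lower by more than 1 on the log2 scale, beside 2.4% (3.99% in either direction). The median log2 fold change of the members was -0.90, beside -0.04 over 13844 genes.

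H2AC6 was at 5.63, 5.98, 5.31 and 4.69 CPM in the NAA40-KD (+dox) libraries, all below the lowest NAA40-KD (-dox) library (14.4 CPM). Its estimate on the log2 scale was -1.65 (SE 0.162, adjusted p = 0.00150). H2BC15 was at 1.54, 1.18, 1.62 and 1.49 CPM, with no library reaching the NAA40-KD (-dox) minimum of 3.65 CPM. Its estimate on the log2 scale was -1.50 (SE 0.194, adjusted p = 0.00349). H1-2 was at 7.44, 6.65, 7.08 and 7.53 CPM, a range of less than 1 CPM, and fell by 1.17 on the log2 scale (SE 0.189, adjusted p = 0.00796). H2BC5 was at 4.17, 5.39, 5.16 and 4.40 CPM and fell by 1.16 (SE 0.159, adjusted p = 0.00455). These 4 genes kept an adjusted p below 0.05 when any 1 of the 8 libraries was left out.

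H3C6 (ENSG00000274750, HIST1H3E, chr6:26224199-26227473) was at 2.63, 1.85, 1.77 and 2.13 CPM in NAA40-KD (+dox) against 4.25, 5.24, 4.01 and 2.71 CPM in NAA40-KD (-dox). The groups were separated by less than 0.1 CPM, and the estimate on the log2 scale was -0.96 (SE 0.238, adjusted p = 0.0361). Its call was kept in 1 of 8 fits that left out a library, the one without NAA40-KD (-dox) replicate 4. It was lost with the replicate block (adjusted p = 0.0797) and without a filter on low counts (0.0572). H2AC25 behaved differently from H2AC6, with 8.35, 11.3, 12.8 and 12 CPM in NAA40-KD (+dox) and an estimate of -0.07 on the log2 scale (adjusted p = 0.892), which became 0.25 (adjusted p = 0.117) without NAA40-KD (-dox) replicate 4. The 5 called and H2BC12, 6 members in all, were lower in every NAA40-KD (+dox) library than in every NAA40-KD (-dox) library, beside 14.2% of all genes. Without NAA40-KD (-dox) replicate 4 this held for 8 members, beside 25.9% of all genes. Without replicate 4, 8 of 11 members were called lower, H2BC12, H2BC21 and H4C9 in addition, beside 26.6% of all genes (52.4% in either direction).

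Another comparison set the lines against each other under doxycycline, where the NAA40 difference was not called (log2 fold change 0.15, adjusted p = 0.281). Here H3C6, H2AC6, H1-2 and H2BC5 fell in NAA40-KD (+dox) against SCR (+dox), and H2AC25 rose. These 5 of 11 members (4 lower, 1 higher) passed an adjusted p of 0.05 in a comparison in which 24.5% of all genes were called, 13.7% lower and 10.9% higher. None changed by more than 1 on the log2 scale in the edgeR fit, DESeq2 or limma-voom, also at an unadjusted p below 0.05, while 2.15% of all genes passed both thresholds. The median was -0.02, beside -0.00 over 13869 genes.

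H3C6 was at 4.95, 4.28, 3.19 and 3.55 CPM in SCR (+dox), each above the NAA40-KD (+dox) maximum of 2.63 CPM, and its estimate on the log2 scale was -0.94 (SE 0.211, adjusted p = 0.00376). H2AC6 was at 7.54, 9.34, 7.56 and 9.13 CPM in SCR (+dox) and differed by -0.64 on the log2 scale (SE 0.146, adjusted p = 0.00414). H1-2 was at 11, 8.72, 13.4 and 8.70 CPM and H2BC5 at 6.91, 7.24, 6.52 and 6.31 CPM, with log2 fold changes of -0.55 (adjusted p = 0.0137) and -0.49 (adjusted p = 0.0224). All 4 were lower in every NAA40-KD (+dox) library than in every SCR (+dox) library, beside 13.9% of all genes. H2AC25 was at 6.36, 6.38, 9.04 and 8.77 CPM in SCR (+dox) and overlapped the NAA40-KD (+dox) libraries through replicate 1 of the latter (8.35 CPM). Its estimate on the log2 scale was 0.54 (SE 0.159, adjusted p = 0.0192). H3C6, H2AC6 and H1-2 were called in each of the 8 fits without 1 library, H2BC5 in 6 and H2AC25 in 5. In a fit over all 16 libraries, which called 6.71% of all genes in this comparison, H2AC6 and H3C6 were called, and H1-2 (adjusted p = 0.116), H2BC5 (0.0873) and H2AC25 (0.213) were not. Without NAA40-KD (+dox) replicate 4, the number called was 3, beside 17.3% of all genes (24.5% with that library). Without SCR (+dox) replicate 3 or NAA40-KD (+dox) replicate 1, 1 member passed both thresholds, beside 1.83% and 2.2% of all genes.

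The fourth comparison, SCR (+dox) against SCR (-dox), set the doxycycline labels against each other within the control line. No member and no gene passed an adjusted p of 0.05 by edgeR, DESeq2 or limma-voom (0.0% of 13882 genes). At an unadjusted p below 0.05 edgeR gave 1 member and 271 genes. That member was H2BC5, with 4.50, 5.96, 5.42 and 3.50 CPM in SCR (-dox) and 6.91, 7.24, 6.52 and 6.31 CPM in SCR (+dox). It was the 1 member higher in every SCR (+dox) library, beside 0.756% of all genes, and its estimate was 0.48 (SE 0.180, adjusted p = 0.9999). The members had a median of 0.11, with 6 positive and 5 negative values.

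The interaction of line and doxycycline label tests whether the difference between the doxycycline labels was the same in both lines. It was not the same for H2AC6 (-1.76, SE 0.228, adjusted p = 0.000234), H2BC5 (-1.64, SE 0.232, adjusted p = 0.000418), H1-2 (-1.44, SE 0.276, adjusted p = 0.00419) and H3C6 (-1.19, SE 0.317, adjusted p = 0.0259). These 4 of 11 members, all lower, passed both thresholds in the edgeR fit, beside 2.62% of 14392 genes (4.49% in either direction). At the adjusted p alone the same 4 were called, beside 4.91% (9.22% in either direction). Of the 11 values, 10 were negative, and the median was -1.13, beside -0.05 over all genes. H2AC6, H2BC5 and H1-2 passed in each of the 16 fits without 1 library and H3C6 in 10 of 16. H2BC12 (-1.13, adjusted p = 0.0513) and H2BC15 (-1.26, adjusted p = 0.0542) lay just above the threshold and passed it without NAA40-KD (-dox) replicate 4, where 6 members were called, beside 12.3% of all genes (24.2% in either direction).

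**Figure D3:**
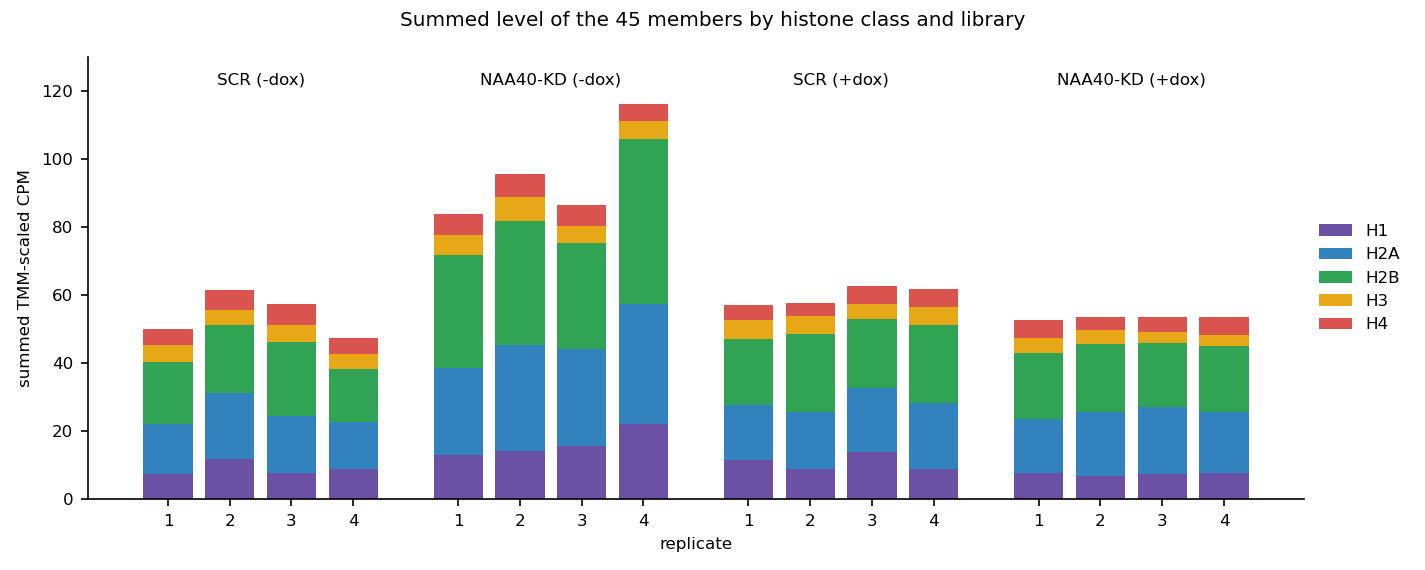
Summed level of the 45 members (vertical axis, TMM-scaled CPM from 0) in each of the 16 libraries (horizontal axis, replicates 1 to 4 within each group), stacked by histone class. The 4 NAA40-KD (-dox) libraries reach 83.9 to 116 CPM and the other 12 libraries 47.4 to 62.5 CPM, and H2A and H2B make up most of each bar.

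Summed over all 45 members, the histone mRNA level was 49.9, 61.6, 57.3 and 47.4 CPM in SCR (-dox) and 83.9, 95.6, 86.4 and 116 CPM in NAA40-KD (-dox). It was 57.0, 57.6, 62.5 and 61.8 CPM in SCR (+dox) and 52.7, 53.6, 53.5 and 53.5 CPM in NAA40-KD (+dox). The NAA40-KD (-dox) libraries thus stood above the other 12. The ratio of the group means, 95.6 ± 14.7 to 54.1 ± 6.57 CPM (SD, n = 4), was 1.77, or 1.64 without replicate 4. The H2B sum went from 18.9 ± 2.69 to 37.3 ± 7.75 CPM, the H2A sum from 16.2 ± 2.42 to 30.1 ± 4.15 CPM and the H1 sum from 8.87 ± 2.03 to 16.3 ± 4.10 CPM (SD, n = 4). The H3 sum was 4.72 ± 0.354 and 5.86 ± 0.961 CPM, without overlap but with a narrow gap (5.04 against 5.10 CPM). The H4 sum was 5.34 ± 0.895 and 6.04 ± 0.673 CPM, with overlap and a difference close to the spread between libraries. The 34 members below the filter summed to 5.56 ± 0.827 and 5.88 ± 1.45 CPM, so nearly all of the difference in the total came from the 11 members past it. The 5 genes known to be also made in polyadenylated form, H2AC6, H2BC4, H2BC5, H2BC12 and H2BC21, together went from 22.8 ± 3.29 to 47.6 ± 6.84 CPM. H2BC4, which did not pass the filter, was at 0.380 to 0.935 CPM in SCR (-dox) and at 0.596, 0.607, 1.09 and 1.97 CPM in NAA40-KD (-dox).

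The genes that accompany histone supply were read from lists written by hand. S phase genes moved the other way from the members. In NAA40-KD (-dox) against SCR (-dox) all 33 had negative log2 fold changes with a median of -0.99, and 21 fell at an adjusted p below 0.05 in the edgeR test, beside 3.54% of all genes. GINS3, a subunit of the replicative helicase, fell by 1.69 on the log2 scale, DTL, an adaptor of the S phase ubiquitin ligase, by 1.65 and CCNE2, a cyclin of S phase entry, by 1.59. In NAA40-KD (+dox) against NAA40-KD (-dox), 26 of the 33 rose, led by CLSPN (1.66), a replication checkpoint mediator, and GINS2 (1.65), beside 4.71% of all genes. Without NAA40-KD (-dox) replicate 4 all 33 were called lower in the first comparison, beside 19.4% of all genes. TYMS, which makes thymidylate for DNA synthesis, fell by 0.99 in the first comparison.

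Histone chaperones, which carry new histones to chromatin, were on the side of the S phase genes. CHAF1A (-1.04) and CHAF1B (-1.11), subunits of chromatin assembly factor 1, ASF1B (-1.11) and NASP (-0.96) fell in NAA40-KD (-dox) against SCR (-dox), 4 of 20 tested, beside 3.54% of all genes. The median of the 20 was -0.39, and 12 were called lower without NAA40-KD (-dox) replicate 4, beside 19.4% of all genes. In NAA40-KD (+dox) against NAA40-KD (-dox) 5 of 20 rose, beside 4.71% of all genes, among them CHAF1B (1.30), NASP (1.24) and CHAF1A (1.15), and CABIN1 (-0.96) fell, beside 5.5%. Among the genes listed as replication-independent histone variants, the median in the first comparison was -0.48. Of 11 tested, 3 fell there, among them H2AZ1 (-0.79) and H2AZ2 (-0.65), beside 3.54% of all genes called lower. In the second, 2 of 11 rose, among them H2AZ2 (0.53), beside 4.71% of all genes. Without replicate 4, 8 variants were called in the first comparison, 7 of them lower, beside 36.5% of all genes called and 19.4% lower.

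**Figure D4:**
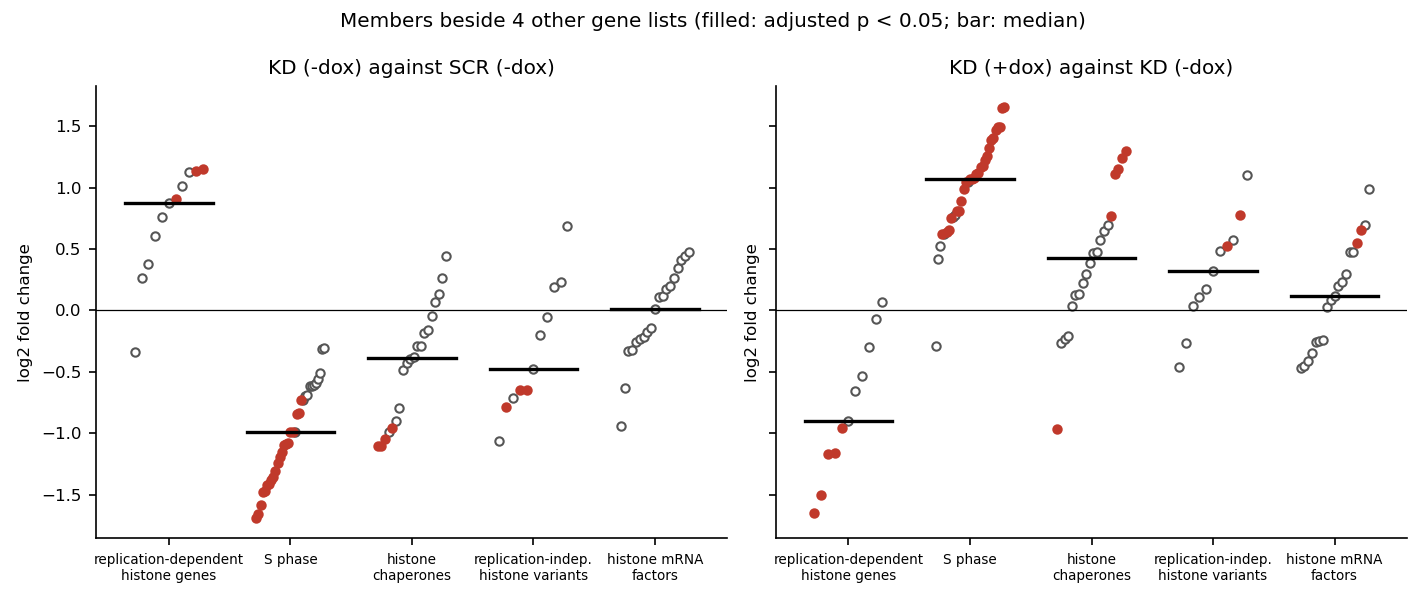
Log2 fold changes (vertical axis) of the members and of 4 other gene lists (horizontal axis) in NAA40-KD (-dox) against SCR (-dox) and in NAA40-KD (+dox) against NAA40-KD (-dox), with 1 point per gene, filled where the adjusted p was below 0.05, with a bar at the median. The medians were 0.88 for the members and -0.99 for S phase in the first panel and -0.90 and 1.07 in the second.

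The factors that transcribe, process and degrade histone mRNA were mostly below the threshold. Of 19 tested, none passed an adjusted p of 0.05 in NAA40-KD (-dox) against SCR (-dox) by edgeR or limma-voom. DESeq2 called 2 lower, beside 7.03% of all genes (13.8% in either direction). At an unadjusted p below 0.05 edgeR gave 3, and the share of all genes at that threshold is not given here. The median of the 19 was 0.01. Without NAA40-KD (-dox) replicate 4, 6 were called, 2 higher and 4 lower, in a fit that called 36.5% of all genes. SLBP was at 105, 101, 94.5 and 124 CPM in SCR (-dox) and at 89.7, 83.3, 89.4 and 73.8 CPM in NAA40-KD (-dox), without overlap, and its estimate on the log2 scale was -0.33 (SE 0.147, adjusted p = 0.210). In NAA40-KD (+dox), at 121, 117, 129 and 127 CPM, SLBP rose by 0.55 (SE 0.120, adjusted p = 0.0219) against NAA40-KD (-dox). NPAT was at 35.4, 30.1, 36.6 and 38.4 CPM in SCR (-dox) and at 34.0, 35.3, 31.7 and 11.01 CPM in NAA40-KD (-dox), the low value being that of replicate 4, with an estimate of -0.33 on the log2 scale (adjusted p = 0.566). Under doxycycline NPAT rose by 0.33 (adjusted p = 0.0417) and LSM11, a subunit of the U7 particle that directs histone pre-mRNA cleavage, by 0.73 (adjusted p = 0.000457) in NAA40-KD against SCR. These were 2 of the 4 factors called there, all higher, beside 10.9% of all genes. CASP8AP2, a cofactor of histone gene transcription, was the 1 factor called in the interaction (1.20, adjusted p = 0.0306), beside 4.31% of genes called higher. It also passed the fold threshold there. Without NAA40-KD (-dox) replicate 4, none of the 19 factors passed both thresholds in the interaction. The number past the adjusted p alone in that fit is not given here.

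RNAs that end without a poly(A) tail were almost absent from the table. Of 10 such RNAs listed, 4 had a row and 1, RN7SL2, passed the filter. RN7SL2 was at 4.76, 5.42, 2.75 and 5.47 CPM in SCR (-dox) and at 1.04, 2.58, 1.53 and 17.5 CPM in NAA40-KD (-dox). It was thus lower in 3 of the 4 NAA40-KD (-dox) libraries and highest of all in replicate 4. Of the members past the filter, H2BC12, H1-2, H2AC25, H2BC5 and H3C10 were also highest in that library. The log2 fold change of RN7SL2 was 0.31 (adjusted p = 0.849), and without replicate 4 the sign turned (-1.42, lower at an adjusted p below 0.05). TERC, the RNA of telomerase, was listed at 0 in 15 of 16 libraries.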

How the data were processed

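The authors deposited 1 table of raw read counts per gene for the 16 libraries. Per the methods it was made with STAR alignment and featureCounts. The methods name a mouse genome build and the labels a human and a mouse build, and all 33937 row identifiers are human Ensembl genes. The strand and multi-mapping settings were not given in the sources used here. Groups and replicate numbers come from the labels. Members were matched by symbol through GENCODE 29 and the members and lists were chosen with earlier results of these data known.

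Counts were tested with edgeR 4.0.16 in R 4.3.3 (robust quasi-likelihood fit, TMM scaling, genes with CPM above 1 in at least 4 of the libraries fitted), each comparison on its own 8 libraries and the interaction on all 16. The code was tested on simulated data. Adjusted p-values are Benjamini-Hochberg over all genes tested, with thresholds of 0.05 and an absolute log2 fold change of 1. Alternatives were DESeq2 1.42.0, limma-voom 3.58.1, library-size scaling, other filters, a fit over all 16 libraries, a replicate block, an adjusted p of 0.1 and leaving out each library. Every member could be named, with full values for up to 6 per direction past both thresholds and the 6 with the highest mean level. NAA40, SLBP and NPAT were always given, and up to 4 genes per other list. H2BC15, H3C6, H2BC4, RN7SL2, TERC, TYMS and CASP8AP2 were given further values after these had been seen. Libraries held 11065606 to 13855486 counts, which leaves members below the filter with too few reads to compare. Samples are 4 RNA preparations per group, and p-values measure the spread between them.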

Additional observations from a re-analysis of the deposited data

Results flagged for a closer look

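In 4 of the 48 groups of 4 libraries examined (11 members and their sum in 4 groups), 1 library lay farther from the others than Dixon's critical value allows, which chance alone gives in about 1 in 20 such groups. H2AC25 was at 8.98 CPM in SCR (-dox) replicate 2, above the other 3 libraries of that group. In NAA40-KD (-dox) replicate 4, H2AC25 was at 18.5 CPM and H2BC12 at 23.6 CPM, each the highest value of that gene in any library. The sum of the 45 members was 52.7 CPM in NAA40-KD (+dox) replicate 1, the lowest of a group that spanned less than 1 CPM.

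The effect of the doxycycline label differed between the lines for 4 members in the interaction test of edgeR. The interaction was -1.76 for H2AC6, -1.64 for H2BC5, -1.44 for H1-2 and -1.19 for H3C6, all on the log2 scale. The doxycycline difference within SCR was 0.11, 0.48, 0.27 and 0.23 for these genes and that within NAA40-KD was -1.65, -1.16, -1.17 and -0.96. Both differences enter the interaction, so neither is separate support for it.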

How the results depend on the processing

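The calls in NAA40-KD (-dox) against SCR (-dox) depended most on the settings. The number of members past both thresholds (2) was 4 with DESeq2, with the fit over all 16 libraries and at an adjusted p of 0.1, and the number past the adjusted p alone (3) was 6, 6 and 5. The share of all genes past the adjusted p went from 6.42% to 13.8%, 20.5% and 12.2% in the same order. The share past both thresholds went from 3.47% to 4.85%, 5.36% and 4.66%. Both numbers were 0 with the replicate block, which called 0.59% of all genes and where the adjusted p was 0.0558 for H2AC6, 0.0864 for H2BC5 and 0.125 for H1-2. Replicate numbers were not taken to pair the samples, since in each comparison at least 1 same-numbered pair correlated below 0.1. This does not exclude pairing. The correlations were -0.514 to 0.167 here and -0.304 to 0.07 within SCR. They were -0.052 to 0.234 between the lines under doxycycline, where replicates 3 and 4 matched their own number best. In that comparison the block called the same 5 members as the main fit, beside 29.3% of all genes. Within NAA40-KD the correlations were 0.04 to 0.302, and replicates 2 to 4 each matched their own number best. Within NAA40-KD the block ended the call of H3C6 (adjusted p = 0.0797) and left 4 members called, beside 5.61% of all genes. In NAA40-KD (-dox) against SCR (-dox), without 1 library, 1 to 3 members passed both thresholds, beside 1.32% to 4.27% of all genes. The adjusted p alone was passed by 1 to 7, beside 1.64% to 36.5% of all genes. In NAA40-KD (+dox) against SCR (+dox) the fit over all 16 libraries called 2 members, beside 6.71% of all genes. Without 1 library, 0 to 1 members passed both thresholds, beside 1.83% to 2.2% of all genes. The adjusted p alone was passed by 3 to 5, beside 17% to 25.4%. In NAA40-KD (+dox) against NAA40-KD (-dox) the number past the adjusted p without 1 library was 4 to 8. It was 8 without NAA40-KD (-dox) replicate 4, beside 52.4% of all genes, and 4 without NAA40-KD (+dox) replicate 2, beside 3.53%. Without the 5 genes also made in polyadenylated form, the log2 ratio of the summed level went from -0.84 to -0.59 in that comparison and from -0.16 to -0.0705 between the lines under doxycycline. The cause of these changes was not tested.

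Of 880 single-gene values under an alternative, 797 kept direction and call, 35 lost a call, 31 gained one and 17 turned sign, the last all when 1 library was left out and none of them a called value. Their ranges were -0.0139 to 0.37 for H2BC21 and -0.069 to 0.052 for H2BC12 in NAA40-KD (+dox) against SCR (+dox), -0.19 to 0.25 for H2AC25 and -0.18 to 0.22 for H2AC11 in NAA40-KD (+dox) against NAA40-KD (-dox), -0.27 to 0.22 for H2BC21 and -0.42 to 0.13 for H2BC15 within SCR, and -0.27 to 0.19 for H3C10 in the interaction. Depth limits the 34 members below the filter, none above 24 counts in a library.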
